A study of Mus musculus with 4 samples.

Results

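The Sox genes encode transcription factors that share the HMG box, a DNA-binding domain first described in Sry. The genes examined were Sox1, Sox2, Sox4, Sox7, Sox8, Sox9, Sox10, Sox11, Sox17 and Sox18, taken by name as a list of 10. Of these 10 genes, 8 were named by probes of the arrays, with 52 of 82850 positioned probes. Sox1 and Sox10 were not analysed here. Intestinal genomic DNA of old mice, aged 32 months, was set against that of young mice, aged 3 months. All were C57BL/6, an inbred strain. The DNA was hybridised to 2 custom Agilent arrays with long oligonucleotide probes in and around gene promoters, with the 32-month DNA in Cy5 (red) and the 3-month DNA in Cy3 (green). Each array carried 1 sample of either age, and the dyes were not exchanged on any array. Age and dye therefore cannot be told apart, no difference could be tested across animals, and the number of arrays limits the precision. The labels do not state the animals' sex, the number of animals per sample, the part of the intestine, or the step by which DNA was selected for its methylation. An abbreviation, RMCA, stands unexplained in a file header of the first array. All values are therefore array signals, and a difference in signal is not given as a percentage of methylation.

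Sox factors bind short DNA motifs through the HMG box and act with partner factors, often of the Pou and Pax families, to set and hold cell identity. In the intestine Sox9 marks progenitor cells at the base of the crypts, Sox17 is known from the formation of the definitive endoderm, and Sox8 and Sox10 are known from neural crest derivatives such as the enteric nervous system. Sox2 is known from the foregut, and Sox7, Sox17 and Sox18 from the endothelium of blood and lymph vessels. Methylation of cytosine in CG dinucleotides of a promoter is commonly associated with low expression of the gene, and expression was not measured here. Intestine holds epithelial, muscle, vascular, immune and nerve cells, and the part of a different mix of these cells in the differences given below was not tested.

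The 3 probe groups with the clearest differences lay at Sox18, Sox11 and Sox17, and their sequences are printed here because the results turn on them. The sequences are those deposited for the probes, in lower case with each CG dinucleotide in capitals, with the chromosome and positions that the files give. The files do not state the strand of a probe, and the build behind these positions is not named in the sources used here. The 4 probes on the Sox18 side of the promoter region that the files name Sox18-Tcea2 were these.
Sox18 probe 1 (chr2:181601039-181601083): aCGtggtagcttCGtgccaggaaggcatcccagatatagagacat
Sox18 probe 2 (chr2:181601212-181601256): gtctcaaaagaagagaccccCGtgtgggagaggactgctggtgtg
Sox18 probe 3 (chr2:181601522-181601572): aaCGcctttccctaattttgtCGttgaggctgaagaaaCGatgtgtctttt
Sox18 probe 4 (chr2:181601770-181601824): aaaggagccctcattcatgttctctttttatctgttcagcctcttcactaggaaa

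The region of Sox17 held 9 probes, of which the 6 at the lowest positions are printed because the size of the difference changed between the fourth and the fifth of them.
Sox17 probe 1 (chr1:4486367-4486425): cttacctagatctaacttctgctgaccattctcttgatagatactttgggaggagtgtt
Sox17 probe 2 (chr1:4486673-4486720): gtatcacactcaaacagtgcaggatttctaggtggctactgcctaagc
Sox17 probe 3 (chr1:4486882-4486934): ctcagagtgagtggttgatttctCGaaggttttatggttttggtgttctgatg
Sox17 probe 4 (chr1:4487078-4487133): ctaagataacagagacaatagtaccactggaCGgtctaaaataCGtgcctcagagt
Sox17 probe 5 (chr1:4487316-4487365): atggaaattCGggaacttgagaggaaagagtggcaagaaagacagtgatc
Sox17 probe 6 (chr1:4487520-4487564): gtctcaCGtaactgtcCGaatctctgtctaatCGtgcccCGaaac

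The region of Sox11 held 6 probes, all of them usable.
Sox11 probe 1 (chr12:27928380-27928424): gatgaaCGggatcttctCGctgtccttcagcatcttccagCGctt
Sox11 probe 2 (chr12:27928636-27928680): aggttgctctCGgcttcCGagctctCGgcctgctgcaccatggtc
Sox11 probe 3 (chr12:27928973-27929021): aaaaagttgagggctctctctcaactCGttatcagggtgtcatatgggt
Sox11 probe 4 (chr12:27929414-27929458): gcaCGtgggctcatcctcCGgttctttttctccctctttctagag
Sox11 probe 5 (chr12:27929803-27929857): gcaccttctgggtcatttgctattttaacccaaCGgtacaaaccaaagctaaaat
Sox11 probe 6 (chr12:27929929-27929973): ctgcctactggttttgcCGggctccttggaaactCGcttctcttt

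Probe 3 of Sox11 could be placed on the gene without the positions of the files, since its sequence occurs in RefSeq's promoter sequence of Sox11 (assembly GRCm38.p6) on the opposite strand, from 35 bases before the start of the gene to base 14 of it. The 250 bases before that start, on chromosome 12 from 27342719 to 27342968, minus strand, held 17 CG dinucleotides. At least as many were found in 23.5% of 32851 mouse promoter sequences of that table.
Sox11 promoter: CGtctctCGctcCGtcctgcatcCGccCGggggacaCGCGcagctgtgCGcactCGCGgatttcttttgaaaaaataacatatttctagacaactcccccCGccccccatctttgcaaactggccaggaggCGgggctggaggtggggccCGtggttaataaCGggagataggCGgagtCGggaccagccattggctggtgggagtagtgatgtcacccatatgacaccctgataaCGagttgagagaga

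Sox2 is printed for comparison, as the only measured gene of the list with a value below 0, although the sign turned under normexp. Its first 3 probes and the last were usable.
Sox2 probe 1 (chr3:34840683-34840732): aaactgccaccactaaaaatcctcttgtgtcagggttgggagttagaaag
Sox2 probe 2 (chr3:34840881-34840925): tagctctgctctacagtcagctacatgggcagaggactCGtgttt
Sox2 probe 3 (chr3:34841202-34841250): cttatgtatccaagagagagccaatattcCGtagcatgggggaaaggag
Sox2 probe 5 (chr3:34841685-34841736): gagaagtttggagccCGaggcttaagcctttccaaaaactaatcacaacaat

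In RefSeq, the 250 bases before the start of Sox2 (GRCm38.p6, chromosome 3, 34649745 to 34649994, plus strand) held 27 CG dinucleotides, and at least as many were found in 8.56% of the promoter sequences. None of the array's Sox2 probes matched that window. The same count was 29 for Sox1, 18 for Sox8 and 11 for Sox4, and at least as many were found in 6.78%, 21.7% and 35.6% of the promoter sequences. Of the 10 listed genes, 5 were matched in that table by symbol, and no promoter is shown for Sox7, Sox9, Sox10, Sox17 and Sox18.

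A probe was counted as usable when its signal was well above background, by the scanner's own flag, in at least 1 of the channels. Of the 52 probes, 45 passed, 7 were dim in both channels, and none carried an outlier flag. For each usable probe the log2 ratio of 32-month over 3-month signal was centred on the median of its array, so values above 0 mean relatively more signal at 32 months than at 3 months. Neighbouring probes of 1 name, at most 1000 bp apart, formed a region, and each region was given the median of its usable probes with their SD. Probes of a region share the DNA samples and lie close together, so that SD is a spread within a region and not an error across animals. A region was called higher when it had at least 2 usable probes, a median of at least 1 (a 2-fold difference) and every usable probe above 0, and lower in the mirrored case. Repeated spots of a control probe had an SD of log2 ratio of 0.26 over 88 spots on the first array and 0.19 over 93 spots on the second. Signals of those spots were 174 and 464 at 32 months and 198 and 562 at 3 months, in array order. The SD therefore does not describe the brighter probes of the regions called higher.

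Regions of Sox11, Sox17 and Sox18 had higher signal in 32-month than in 3-month intestine, between 2.40 and 4.03-fold. By the calling rule these were 3 of the 10 measured Sox regions called higher, beside 2.01% of all 15352 measured regions. No Sox region was called lower, beside 0.632% of all regions, and 7 were not called in either direction. The median over the 10 regions was 0.81, against 0.015 over all regions, and 9 of 10 were above 0, against 52.2% of all. Of those above 0, the values of 0.0017 and 0.07 fell as low as -0.05 and -0.07 under alternative processing. The count of 9 therefore depended on the processing. Among single probes, 17 of 45 had a log2 ratio of at least 1, beside 6.35% of all 62410 usable probes. Of those 17, 4 each lay at Sox11, Sox17 and Sox18, 2 at Sox7, and 1 each at Sox4, Sox8 and Sox9. The share of all genes with such a probe was not counted. In order of value, the regions were Sox18 (Sox18 side) with 2.01, Sox11 with 1.78, Sox17 with 1.26, Sox7 with 0.96, Sox4 with 0.84, Sox9 with 0.77, the Sox8 and Tmem112 sides with 0.20 and 0.07, the Tcea2 side with 0.0017 and Sox2 with -0.12. Neighbours in this order differed by less than the SD over the probes of either, except Sox9 and the Sox8 side, whose difference was within the SD of Sox9 only. Of all measured regions 96.7% had a lower value than Sox7, 96.1% a lower one than Sox4, 95.6% a lower one than Sox9 and 28.3% a lower one than Sox2. None of the 45 probes had a ratio of -1 or lower, beside 3.35% of all usable probes.

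**Figure D1:**
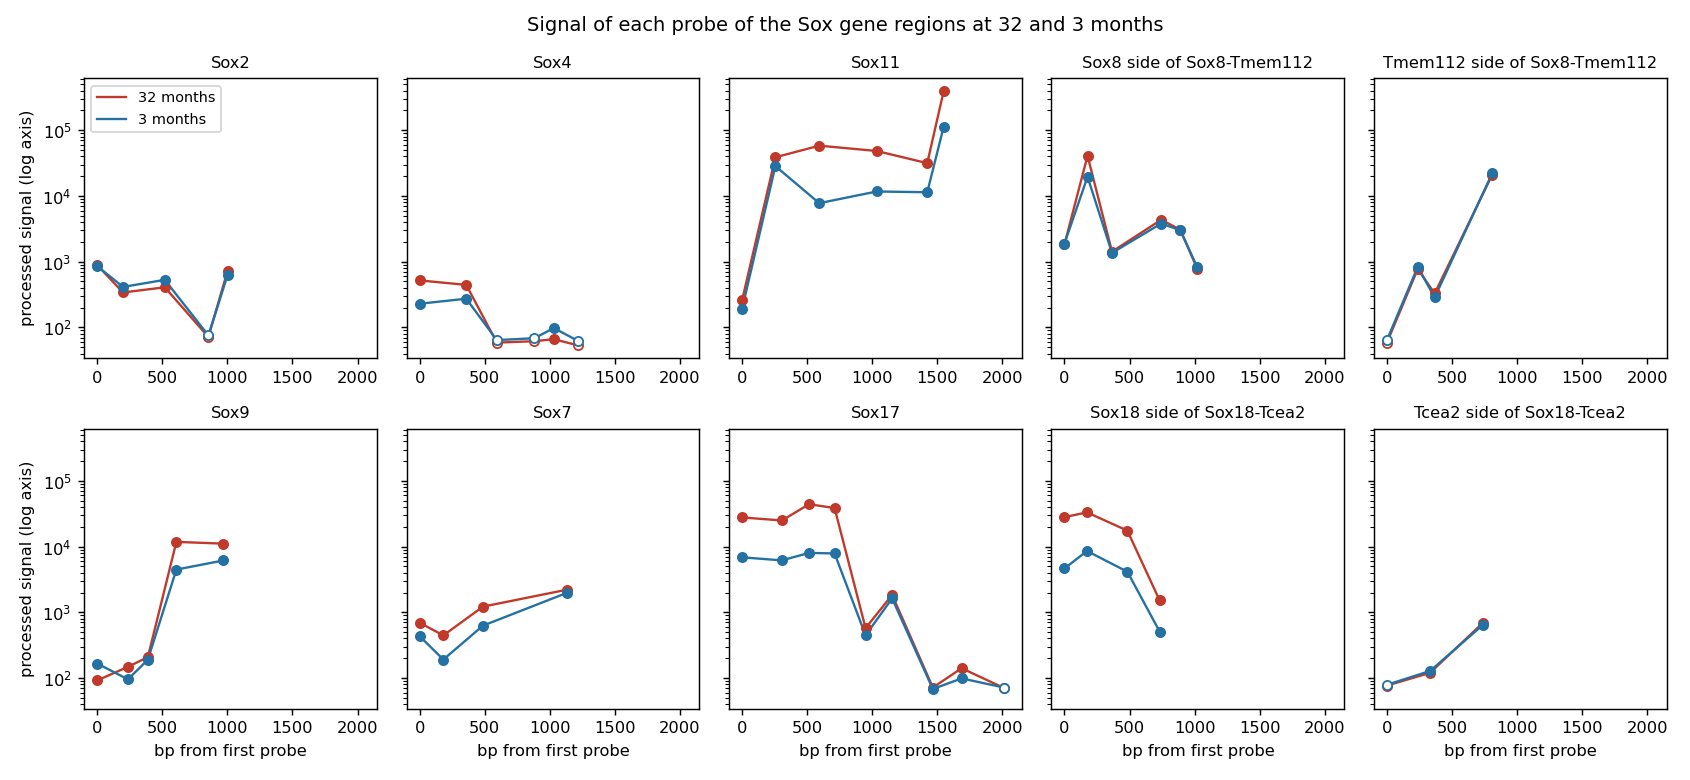
Processed signal of each probe (vertical axis, logarithmic) against its distance in bp from the first probe of its panel, at 32 months (red) and 3 months (blue), for the 8 Sox genes with probes. Open points were not well above background, and the first point of the Sox8 panel is the single probe inside Sox8. The red line stands above the blue at every probe of Sox7, of Sox11 and of the Sox18 side. At Sox17 it stands above the blue at every usable probe, and most widely at the first 4.

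The genes of the SoxF subfamily, Sox7, Sox17 and Sox18, act in the vascular endothelium. Of its 4 regions, 2 were called higher, beside 2.01% of all regions. The median of the 4 was 1.11, against 0.015 over all regions. Among the 4 is the Tcea2 side of Sox18-Tcea2, with a value of 0.0017. Sox18, a factor of lymphatic and blood vessel development, had the highest value of the Sox genes. Its 4 probes, between 181601039 and 181601824 on chromosome 2, are annotated by the array design as divergent promoter, a promoter shared by neighbouring genes that run in opposite directions. Their signals were 28100, 33200, 17500 and 1520 in 32-month intestine, against 4650, 8570, 4150 and 510 in 3-month intestine. All 4 probes were higher at 32 months, with log2 ratios of 2.59, 1.95, 2.07 and 1.57. The region's value was 2.01 ± 0.42 (SD over 4 probes), a 4.03-fold difference, and it stood 99th among the 309 regions called higher. The last of these probes holds no CG in its own sequence, and it moved in the same direction as the 3 that do.

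The same promoter name covered a second group of 3 probes on the Tcea2 side, which the coordinates place between 181608734 and 181609518. Tcea2 encodes a transcription elongation factor. In RefSeq's gene order Sox18 lies at the lower coordinate, which is how the sides were named. The 2 usable probes of that side had signals of 120 and 696 in 32-month intestine, against 128 and 647 in 3-month intestine. Their log2 ratios were -0.10 and 0.10, and the region's value was 0.0017 ± 0.14 (SD over 2 probes). The probes of Sox18-Tcea2 that differed between the ages were thus the 4 on the Sox18 side. Their lowest ratio of 1.57 lay above the highest ratio of 0.10 on the Tcea2 side. By median signal the Tcea2 side was also dimmer, with 408 at 32 months and 387.5 at 3 months. The Sox18 side had 22800 and 4400. The part of brightness in this contrast was not tested.

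Sox17 directs endoderm formation and arterial identity. Its region on chromosome 1, from 4486367 to 4488439, had 8 usable of 9 probes and a value of 1.26 ± 1.04 (SD over 8 probes), a 2.40-fold difference. The difference was uneven along the region. At the 4 probes of lowest position signals were 27800, 25000, 44200 and 38600 in 32-month intestine, against 6870, 6170, 8030 and 7860 in 3-month intestine. Their log2 ratios were 2.01, 2.01, 2.46 and 2.29, and they span the first 711 bp between probe starts. The next 4 usable probes, from 949 to 1687 bp, had signals of 574, 1840, 71.5 and 141 in 32-month intestine, against 447, 1630, 68 and 98.7 in 3-month intestine. Their log2 ratios were 0.36, 0.17, 0.07 and 0.51. The region was split into these groups of 4 where the ratios changed, so their separation is a description and not a test. The second group was also dimmer in both samples. The first probe is annotated as inside the gene and the others as promoter, so the higher signal at 32 months covered both kinds of sequence. Of the first 4 probes, those at 0 and 306 bp hold no CG of their own, and the ratio of both was 2.01. The call of the whole region was the least firm of the 3. It was lost when dim probes were kept (0.51), and under another background correction (normexp) the value was 1.37 but 1 probe fell below 0.

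Sox7, a SoxF factor of early endothelium and blood, missed the call by a small margin. Its 4 probes on chromosome 14, from 62896890 to 62898066, had signals of 694, 445, 1220 and 2210 in 32-month intestine, against 433, 191, 626 and 1980 in 3-month intestine. All 4 were higher at 32 months, with log2 ratios of 0.82, 1.36, 1.10 and 0.30. The value of 0.96 ± 0.45 (SD over 4 probes) lay just under the threshold of 1. The lowest ratio belonged to the probe annotated as inside the gene. With probes joined at up to 500 bp that probe stood apart, and the other 3 then had a value of 1.10 and were called higher.

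The SoxC genes Sox4 and Sox11 encode factors of progenitor and neuronal differentiation. Sox11 had higher signal at 32 months at all 6 probes between 27928380 and 27929973 on chromosome 12. Its signals in probe order were 258, 38800, 58300, 48400, 31600 and 394000 in 32-month intestine, against 191, 28500, 7770, 11700, 11400 and 113000 in 3-month intestine. The first 2 probes, annotated as inside the gene, had log2 ratios of 0.57 and 0.58. The 4 promoter probes had ratios of 3.05, 2.19, 1.61 and 1.94, all above those inside the gene. The ratio of 3.05, an 8.26-fold difference, was the highest of the 45 usable Sox probes, and it belonged to the probe that spans the RefSeq start of Sox11. The region's value was 1.78 ± 0.96 (SD over 6 probes), a 3.42-fold difference, and it stood 120th among the 309 regions called higher.

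Sox4, which is expressed in many progenitor cells, gave a split picture on chromosome 13 between 28960706 and 28961984. Its 2 probes inside the gene had signals of 519 and 443 in 32-month intestine, against 229 and 273 in 3-month intestine. Their log2 ratios were 1.32 and 0.84. Of its 4 promoter probes, 3 were dim in both channels. The other promoter probe had 66.1 at 32 months, not well above background, against 97.7 at 3 months, which after centring makes it at least 1.34-fold lower at 32 months. The value was 0.84 ± 0.90 (SD over 3 probes), and the region was not called. Of the dim probes, 1 matched RefSeq's promoter of Sox4, from 194 to 135 bases before the start, so the signal there is only bounded by background in both samples. With probes required to be well above background in both channels, the 2 probes inside the gene remained and the value was 1.08, which met the rule. With dim probes kept the value was 0.00028, and under normexp it was 0.50, and neither was called.

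**Figure D2:**
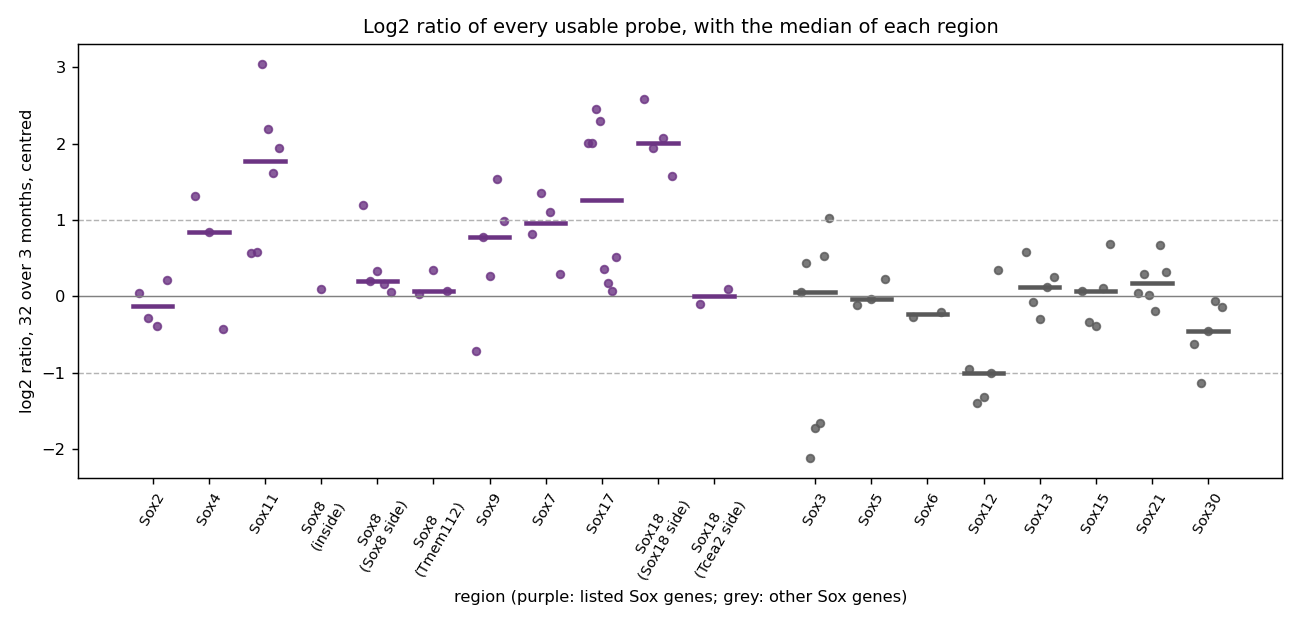
Centred log2 ratio of 32-month over 3-month signal (vertical axis) for each usable probe, with a bar at the median of each region of 2 or more usable probes. Regions of the listed Sox genes are purple and those of the other Sox genes grey, dashed lines mark 1 and -1; the medians of Sox18 (Sox18 side), Sox11 and Sox17 lie above 1 with all their probes above 0.

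Within SoxE, whose genes act in cartilage, testis, glia and neural crest, 3 measured regions had a median of 0.20. None of the 3 was called, beside 2.01% of all regions called higher and 0.632% called lower. Among the 3 is the Tmem112 side of Sox8-Tmem112. Sox9, the progenitor factor of the crypts, had 5 usable probes on chromosome 11 from 112597393 to 112598412. Its signals in probe order were 91.9, 148, 208, 11800 and 11100 in 32-month intestine, against 166, 95.4, 190, 4470 and 6150 in 3-month intestine. Log2 ratios were -0.71, 0.77, 0.27, 1.54 and 0.99, so the first probe was lower and the other 4 higher at 32 months. The value of 0.77 ± 0.85 (SD over 5 probes) was below the threshold, and its spread exceeded it. That median was the ratio of the second probe, and under normexp the value was 0.14. The probes with ratios of 1.54 and 0.99 were neighbours at the upper end of the region, the last of them inside the gene.
Sox9 probe 4 (chr11:112598001-112598050): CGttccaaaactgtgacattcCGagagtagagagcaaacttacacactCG
Sox9 probe 5 (chr11:112598362-112598412): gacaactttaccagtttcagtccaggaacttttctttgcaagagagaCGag
These are printed because they had the highest ratios at Sox9.

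Sox8, a SoxE factor of glia and Sertoli cells, shares its promoter name with Tmem112, whose current symbol is Lmf1. On the Sox8 side, from 25298369 to 25299259 on chromosome 17, signals in probe order were 40900, 1420, 4340, 3060 and 772 in 32-month intestine, against 19600, 1360, 3810, 3000 and 816 in 3-month intestine. The first of these probes had a log2 ratio of 1.20, and the other 4 lay between 0.06 and 0.33. That first probe holds 4 CG dinucleotides and matched RefSeq's Sox8 promoter from 127 to 83 bases before the start, on the opposite strand. The value of this side was 0.20 ± 0.46 (SD over 5 probes). On the Tmem112 side, from 25305781 to 25306634, it was 0.07 ± 0.17 (SD over 3 probes). A single probe inside Sox8 had 1840 at 32 months and 1890 at 3 months, with a centred ratio of 0.10, and formed no measured region. At Sox8 a ratio above 1 was thus seen at 1 of 9 usable probes, printed here because it lies in the RefSeq promoter.
Sox8 probe 1 (chr17:25298369-25298413): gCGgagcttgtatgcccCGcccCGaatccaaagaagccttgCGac

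Sox2, the SoxB1 factor of pluripotent and neural stem cells, had a value near 0, the only reported one below 0 among the listed Sox regions. Its usable probes on chromosome 3, from 34840683 to 34841736, had signals of 884, 340, 407 and 731 in 32-month intestine, against 854, 413, 529 and 630 in 3-month intestine. Log2 ratios were 0.05, -0.28, -0.38 and 0.21, on both sides of 0. The value was -0.12 ± 0.28 (SD over 4 probes), and under normexp it was 0.11, on the other side of 0. None of its usable probes had a ratio of 1 or above, beside 6.35% of all usable probes that did.

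Where along a gene the ratios of at least 1 fell was counted by the design's annotation. They made up 10 of 22 usable Sox probes in promoters, 5 of 14 in divergent promoters and 2 of 9 inside genes. Over all probes of the arrays the same shares were 6.12%, 6.00% and 6.84%. Of the 17 probes with a ratio of at least 1, 14 hold a CG in their own sequence, as do 35 of the 45 usable Sox probes and 59.1% of all usable probes. The median was 2.22 CG per 100 bases in those 17 and 2.15 in the other usable Sox probes. Across the 45 probes the ratio correlated with CG per 100 bases with Pearson's r of 0.18 and Spearman's rho of 0.23, a description over probes that share samples and regions.

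Signal strength moved with the ratio. Of the 45 usable Sox probes, 16 lay in the brightest 10% of all usable probes, and 13 of these 16 had a ratio of at least 1. In that class 19.0% of all 6242 probes had a ratio of at least 1 and 8.12% a ratio of -1 or lower. The 5th to 95th percentile of the class ran from -1.39 to 3.21, and all 16 Sox probes lay inside it. Across the 45 probes the ratio correlated with the mean log2 signal of the channels with Pearson's r of 0.67 and Spearman's rho of 0.58. Over all usable probes these were 0.11 and 0.05. The mean signal includes the 32-month signal itself, so the measures share a term. The 16 bright probes were 5 of Sox11, 4 of Sox17, 3 of Sox18, 2 of Sox8 and 2 of Sox9. After a loess fit on brightness, which takes out an average trend of dye with signal, the values were 2.04 at Sox18, 1.72 at Sox11 and 1.27 at Sox17, and all 3 remained called. A dye bias particular to single sequences was not tested, since no array exchanged the dyes.

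**Figure D3:**
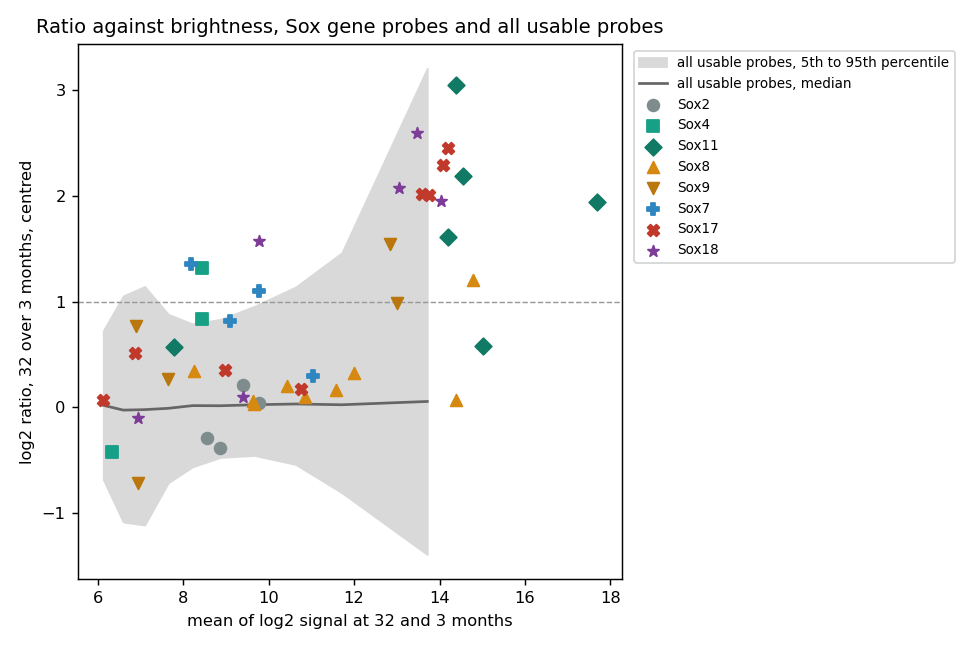
Centred log2 ratio of 32-month over 3-month signal (vertical axis) against the mean log2 signal of the channels (horizontal axis) for the 45 usable Sox probes, 1 symbol per gene. The grey band runs from the 5th to the 95th percentile of all usable probes in 10 classes of brightness and the grey line is their median. Of the 16 Sox probes in the brightest 10%, 13 lie at or above 1. All 16 lie between the 5th and 95th percentile of that class, -1.39 and 3.21.

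Other genes of the family, taken as Sox3, Sox5, Sox6, Sox12, Sox13, Sox14, Sox15, Sox21 and Sox30, were set beside these. Of the 9, 8 were measured with 1 region each, and Sox14 was not analysed here. None of the 8 regions was called higher or lower, their median was 0.015, and 4 were above 0. Sox12, the third SoxC gene, went the other way from Sox4 and Sox11. Its signals in probe order were 1850, 1860, 1290, 1680 and 5150 in 32-month intestine, against 3550, 4890, 3200, 3350 and 4040 in 3-month intestine. The first 4 ratios lay between -1.40 and -0.94, and the last was 0.35. The median of -1.0001 (SD 0.70 over 5 probes) only just met the threshold of -1. Under alternative processing it lay between -1.01 and -0.38, the latter with normexp. With uncentred ratios it was -0.996, short of the threshold. The region was not called because its last probe was above 0. Its first probe matched RefSeq's Sox12 promoter from 203 to 159 bases before the start.

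Sox3, the X-linked SoxB1 gene, had 3 neighbouring promoter probes with ratios of -2.11, -1.73 and -1.66 between others of up to 1.03. Its median over 7 probes was 0.06 ± 1.29 (SD). X-linked regions had a median of -0.07 over 508 regions, and autosomal regions of the same array 0.09 over 7311 regions. Sox30, a gene of male germ cells, had 5 probes below 0 and a value of -0.46 ± 0.43 (SD over 5 probes), with 2 of them not well above background at 32 months. The remaining 5 genes lay between -0.24 at Sox6 and 0.17 at Sox21.

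Partners and targets of Sox factors were taken as a list of 33 genes, of which 29 had a measured region, 30 regions in all. Of these 30, 2 were called higher and none lower, beside 2.01% and 0.632% of all regions, and their median was 0.12. Pax3, a neural crest factor that acts with Sox10 on Mitf and Ret, had a value of 1.61 ± 0.88 (SD over 7 probes), with a median signal of 14400 in 32-month intestine and 4700 in 3-month intestine. Pou3f2, a Pou-domain partner of Sox2 and Sox11 in neural cells, had 1.43 ± 1.02 (SD over 4 probes), with 2950 in 32-month intestine and 1247.5 in 3-month intestine. Pou3f3, of the same family, had 1.05 ± 0.87 (SD over 3 probes) but 1 probe at -0.12, so it was not called. Lgr5, the stem cell marker of the crypts, had 0.82 ± 0.78 (SD over 6 probes), all above 0. Ret, the receptor of enteric nerve progenitors, had 0.55 ± 0.63 (SD over 7 probes), and Col2a1, the cartilage collagen bound by Sox9, 0.46 ± 1.77 (SD over 5 probes). Pax3 lost its call under normexp, where 1 probe fell to -0.06, with a median of 1.98. Lgr5 was called higher under normexp, with 1.48. Pou3f3 was called higher with 500 bp joining, with 1.32, but had 0.33 under normexp. Col2a1 had 1.71 with 500 bp joining and 1.51 as a mean over probes, and was not called.

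Other families of developmental factors were counted by the same rule, beside the 2.01% of all regions called higher and the 0.632% called lower. The Pax genes had 10 regions with a median of 0.13, of which 1, Pax3, was called higher. The Pou-domain genes had 13 regions with a median of 0.24, of which 2, Pou3f2 among them, were called higher and 1 lower. Pax3 and Pou3f2 were also counted above among the partners and targets, so these lists overlap. The Fox genes had 35 regions with a median of 0.18, of which 2 were called higher. No Pax or Fox region was called lower. Beside these, the 10 regions of the listed Sox genes had 3 higher, none lower and a median of 0.81. The 8 regions of the other Sox genes had none called and a median of 0.015. The Pax, Pou-domain and Fox genes were taken by family name, whereas the Sox list is only a part of its family. The genes of the Sox list were chosen by name with earlier results of these arrays known, so these counts describe the lists and carry no test.

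**Figure D4:**
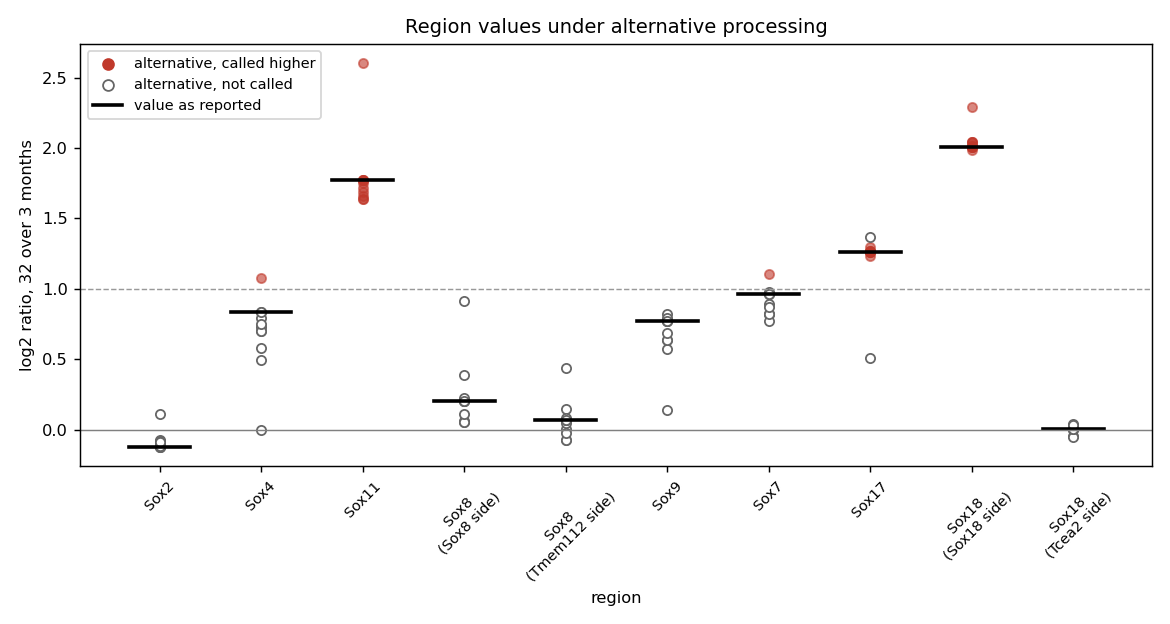
Value of each measured Sox region (log2 ratio of 32-month over 3-month signal, vertical axis) as reported (black bar) and under each alternative processing (points, filled where the region was called higher). Sox18 (Sox18 side) and Sox11 are filled throughout, Sox17 is open under 2 alternatives, and Sox4 and Sox7 are filled under 1 each.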

How the data were processed

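Intestine DNA of 1 sample per age was measured on each of 2 arrays, and the 4 sample records describe the 2 dyes of each. The submitters' processing notes name Agilent Feature Extraction 9.1.3.1 for the authors' scanner intensity values, and per the file headers the processed signals were background-subtracted and scaled between dyes. The deposited log10 ratio of each spot served as an alternative, and its deposited p-value was not used as a test. The authors' value table equalled the processed signals in 100% of spots. How DNA was selected for methylation is not given in the sources used here, and neither is the build.

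For each probe the log2 ratio of the deposited processed red over green intensity was computed and centred on its array's median (0.0044 and -0.14 before centring). Control spots, probes with outlier flags and 272 probes without a position were left out. Probes well above background made up 72.5% at 32 months and 71.2% at 3 months of 41545 on the first array. Of 41577 on the second they made up 70.1% at 32 months and 71.4% at 3 months. No probe was saturated. No p-value was computed for the age difference. Alternatives covered centring, loess (span 0.3), normexp (limma 3.58.1, offset 50), probe filters, the mean over probes, 500 bp joining, block medians (38 rows by 17 columns), a threshold of 0.58, and both other deposited value sources. Centring on probes well above background was added after the data were seen. RefSeq (GRCm38.p6) served for names, gene order and promoter sequences, matched by symbol. Analyses used Python 3.11.15 and R 4.3.3.

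The members, the lists and the rule for named genes (all members, the other Sox genes, and called or at most 4 other partners and targets) were chosen with earlier results of these data known.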

Additional observations from a re-analysis of the deposited data

How the results depend on the processing

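No paired analysis was possible because each array held 1 sample per age and the arrays covered different chromosomes. Sox18 (Sox18 side) was called higher under all 11 alternatives run per region, with values from 1.98 to 2.29, and so was Sox11, from 1.64 to 2.60. Sox17 was called in 9 of 11, from 0.51 to 1.37. The number of Sox regions called higher was 3 with uncentred ratios, loess, the mean over probes, block medians and the added centring. It was 2 with dim probes kept and with normexp, and 4 with 500 bp joining (Sox7), the both-channel filter (Sox4) and the threshold of 0.58 (Sox7). None was called lower under any of these. Of 110 alternative values of the Sox regions, 10 from the authors' table repeat the reported ones, and 108 lay within the SD over probes, a wide limit. Within it Sox4 had 0.00028 with dim probes kept and 0.50 with normexp, against 0.84. Sox9 had 0.14 with normexp, against 0.77, and Sox2 had 0.11, against -0.12. The other 2 were both Sox8 regions under normexp (0.91 and 0.44). The median over the Sox regions lay between 0.36 and 0.87. Among all regions, the number called lower was 20 with normexp and 56 with dim probes kept, against 97, and the threshold of 0.58 gave 683 higher and 349 lower; a lower threshold can only add calls, and the cause was not tested for the other settings. Higher and lower calls numbered 241 and 133 with uncentred ratios and 422 and 20 with normexp, against 309 and 97, so the split over all regions depended on centring and background correction. The precision is limited by signal over background. Median mean signals of the probes were 203 and 135 at 32 months, against 107 and 107 for negative controls, and 113 and 71.8 at 3 months, against 80 and 61.7.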
